A study of Mus musculus with 11 samples.

Results

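Hoxc13, Foxn1, Msx2, Dlx3, Lef1, Axin2, Wnt10a, Wnt10b, Wnt5a and Bmp4 regulate the differentiation of the hair matrix or carry the WNT and BMP signals that act on it. They were chosen by role, with earlier results of these data known, and are 10 of the 49315 genes in the count table. All 10 were among the 18375 genes that passed the filter on low counts and were tested. The table comes from whole skin of neonatal Foxp3-DTR mice, in which the Foxp3 promoter drives the diphtheria toxin receptor, so that diphtheria toxin removes regulatory T cells. The libraries came from 4 mm skin biopsies. The study counts them as biological replicates and does not state the number of mice in each. Control mice (label PBS, n = 2) received PBS, and ΔETreg mice (EarlyDT, n = 3) received toxin at 30 ng/g on postnatal days 6 and 8. ΔLTreg mice (LateDT, n = 3) received it on days 10 and 12, and ΔTreg mice (FullDT, n = 3) on days 6, 8, 10 and 12. Skin was taken 24 h after the last dose, on day 9 for ΔETreg and on day 13 for ΔLTreg and ΔTreg. The study describes its controls as matched for age, but the labels give no day for either control library, so day and treatment were not separated against control, nor between ΔETreg and ΔLTreg, whereas ΔTreg and ΔLTreg share their day.

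The hair matrix is the dividing epithelium at the base of a growing follicle, wrapped around the dermal papilla, and its descendants form the hair shaft and the inner root sheath. WNT ligands stabilise beta-catenin, which joins LEF1 on DNA to switch on differentiation genes and feedback inhibitors such as Axin2, while BMP signals from papilla and matrix favour shaft formation. HOXC13, FOXN1, MSX2 and DLX3 are transcription factors of the matrix and early shaft whose loss gives defective hair.

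Levels below are CPM, counts relative to library size after TMM scaling, and a level compared between genes is CPM per kilobase of exon. On the latter scale Dlx3 was the most abundant member, with a mean of 201.6 over the 11 libraries, followed by Hoxc13 at 94.3, Msx2 at 58.1, Foxn1 at 43.2 and Bmp4 at 23.8. Wnt5a (15.8), Wnt10a (13.3), Axin2 (13.2), Wnt10b (7.69) and Lef1 (6.995) were lower. The 4 transcription factors of the matrix thus stood above all 3 WNT ligands on this scale, and the smallest member count in any library was 529 (Wnt10b, ΔTreg replicate 1).

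The ΔLTreg library titled IC90-F (replicate 1) was set apart in advance because its hair keratins were known to be low, so its keratin values describe that choice and are no separate finding. Its hair shaft keratins, 16 listed genes of which 15 were in the table and Krt83 was the most abundant, summed to 3167 CPM against 9129 to 13801 CPM elsewhere, and 14 of the 15 had their lowest value there. Its total of 32121794 counts was not low. The 10 members summed to 1169 CPM in it and to between 1412 and 1576 CPM in the other libraries. Hoxc13, Foxn1, Msx2, Dlx3, Wnt10a and Bmp4, 6 of 10 members, had their lowest value in it and the other 4 their next to lowest, against 12.7% of all tested genes with their lowest value there. Relative to the mean of the other ΔLTreg libraries, Foxn1 stood at 44.6%, Msx2 at 74.5%, Bmp4 at 74.8%, Dlx3 at 77.8% and Wnt10a at 80.6%. Hoxc13 (87.2%), Wnt5a (87.9%), Lef1 (86.0%) and Axin2 (90.3%) were nearer to those libraries, and Wnt10b, at 98.6%, was level with them. The shortfall was thus deepest for Foxn1 and absent for Wnt10b. The inner root sheath list, 11 genes led by Tchh, summed to 34983 CPM in this library, inside the 32321 to 65133 CPM of the others but below the 65133 and 63397 CPM of the other ΔLTreg libraries. Skeletal muscle markers (12 genes, most abundant Acta1) summed to 5669 CPM in it and 8271 CPM in ΔLTreg replicate 3, against 1726 to 4015 CPM in the remaining libraries. Member fold changes that involve ΔLTreg are therefore given with and without this library.

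**Figure D1:**
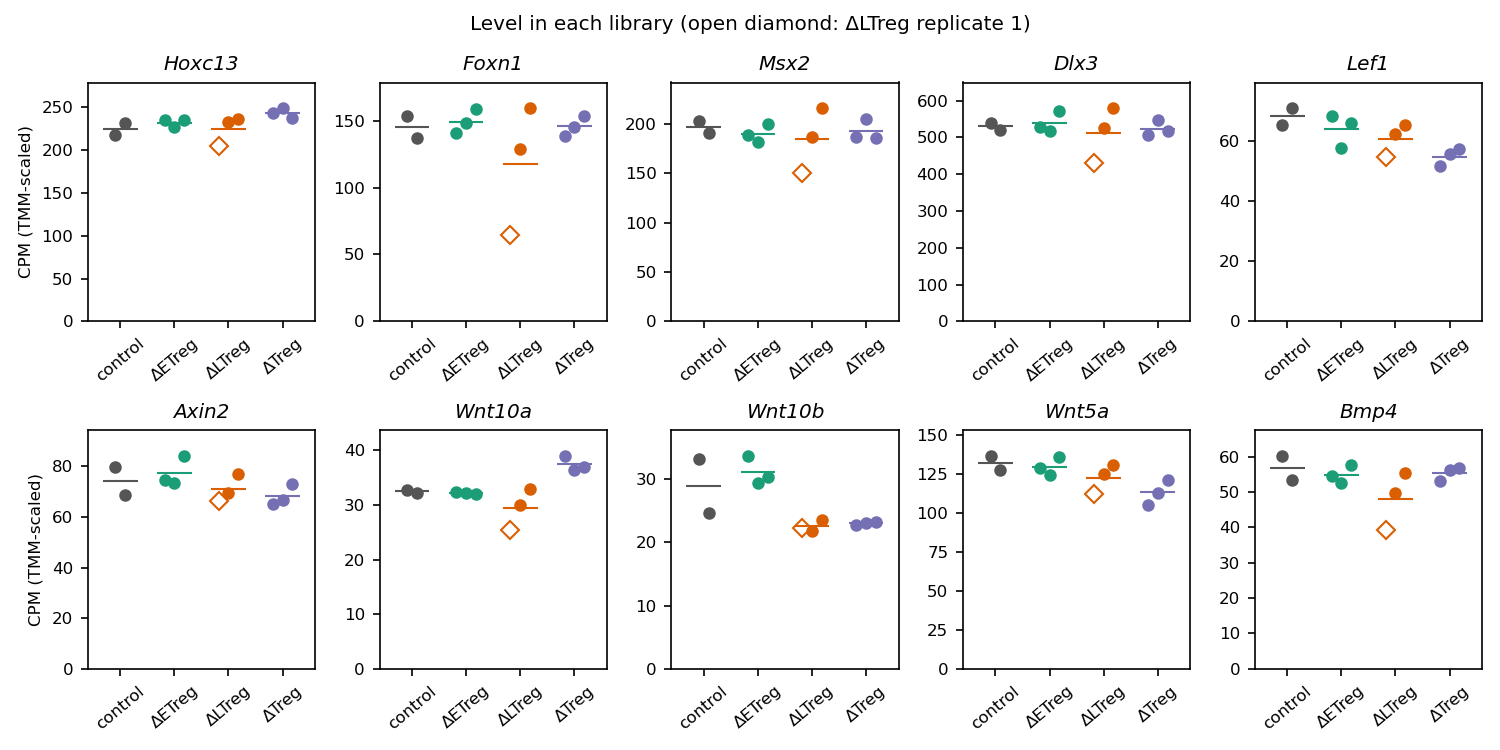
Level of each member in each of the 11 libraries, as TMM-scaled CPM. Bars are group means, and the open diamond is ΔLTreg replicate 1, the library titled IC90-F.

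A gene was called when its edgeR quasi-likelihood p, after Benjamini-Hochberg correction across the tested genes, was under 0.05. The comparisons with control share the control libraries, and those with ΔLTreg share the ΔLTreg libraries. In ΔETreg against control, edgeR called 0 of 10 members beside 0.00544% of all genes (1 of 18375), with 0 members at an unadjusted p under 0.05 and 0 called by DESeq2. In ΔLTreg against control, edgeR called 0 of 10 members beside 4.55% of all genes, with 1 member (Wnt10b) at an unadjusted p under 0.05 and 0 called by DESeq2. In ΔTreg against control, 1 of 10 members was called, Lef1, which was lower, beside 21.5% of all genes. There 4 members (Lef1, Wnt10b, Wnt5a and Wnt10a) had an unadjusted edgeR p under 0.05. In ΔTreg against ΔLTreg, 1 of 10 was called, Wnt10a, which was higher in ΔTreg, beside 16.8% of all genes. In ΔETreg against ΔLTreg, 1 of 10 was called, Wnt10b, which was higher in ΔETreg, beside 6.38% of all genes. The test for any difference among the 4 groups called 2 of 10, Wnt10a and Wnt10b, beside 25.3% of all genes. DESeq2 also called 1, 1 and 1 member in the last 3 pairwise comparisons and 2 members in the 4-group test. A member that was not called is not thereby shown to be unchanged. In ΔTreg against control the power for changes of the members' size, on simulated data, was low. Power is not given here for the other comparisons.

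These background counts moved with single libraries. For all genes, ΔLTreg against control went from 836 calls to 292 without control replicate 1 and to 377 without control replicate 2. ΔTreg against control went from 3946 to 2026 without control replicate 2, and ΔTreg against ΔLTreg from 3096 to 1987 without ΔTreg replicate 1. ΔETreg against ΔLTreg went from 1173 to 573, 353 and 619 without ΔETreg replicates 1, 2 and 3. The 4-group count went from 4646 to 3068 without ΔTreg replicate 1. The 1 call of ΔETreg against control became 7 without control replicate 1 and 3 without ΔLTreg replicate 3, and 0 without any other library except ΔLTreg replicate 1.

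Median log2 fold changes of the members were 0.01 in ΔETreg, -0.13 in ΔLTreg and -0.03 in ΔTreg against control, beside -0.01, 0.00 and -0.01 for all genes tested. The ΔTreg median was -0.11 without control replicate 2 and 0.01 without control replicate 1, and the ΔETreg median -0.05 without control replicate 2 and -0.02 without ΔETreg replicate 3, so neither had a stable sign. In ΔLTreg all 10 members had a log2 fold change below 0 against control. Without ΔLTreg replicate 1 those of Hoxc13, Msx2 and Dlx3 were above 0, as were that of Hoxc13 without control replicate 2 and that of Axin2 without control replicate 1. The ΔLTreg median was -0.03 without ΔLTreg replicate 1 and -0.22 without ΔLTreg replicate 3. In ΔTreg against ΔLTreg the members' median was 0.05 beside 0.00 for all genes, and it was -0.03 without ΔLTreg replicate 1, 0.15 without ΔLTreg replicate 3 and 0.02 without ΔTreg replicate 2. In ΔETreg against ΔLTreg it was 0.10 beside -0.01, and it was 0.03 without that library, 0.19 without ΔLTreg replicate 3 and 0.06 without ΔETreg replicate 3. The medians that involve ΔLTreg thus rested largely on the library titled IC90-F, whereas the call of Wnt10a in ΔTreg against ΔLTreg and that of Wnt10b in ΔETreg against ΔLTreg were also made without it.

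**Figure D2:**
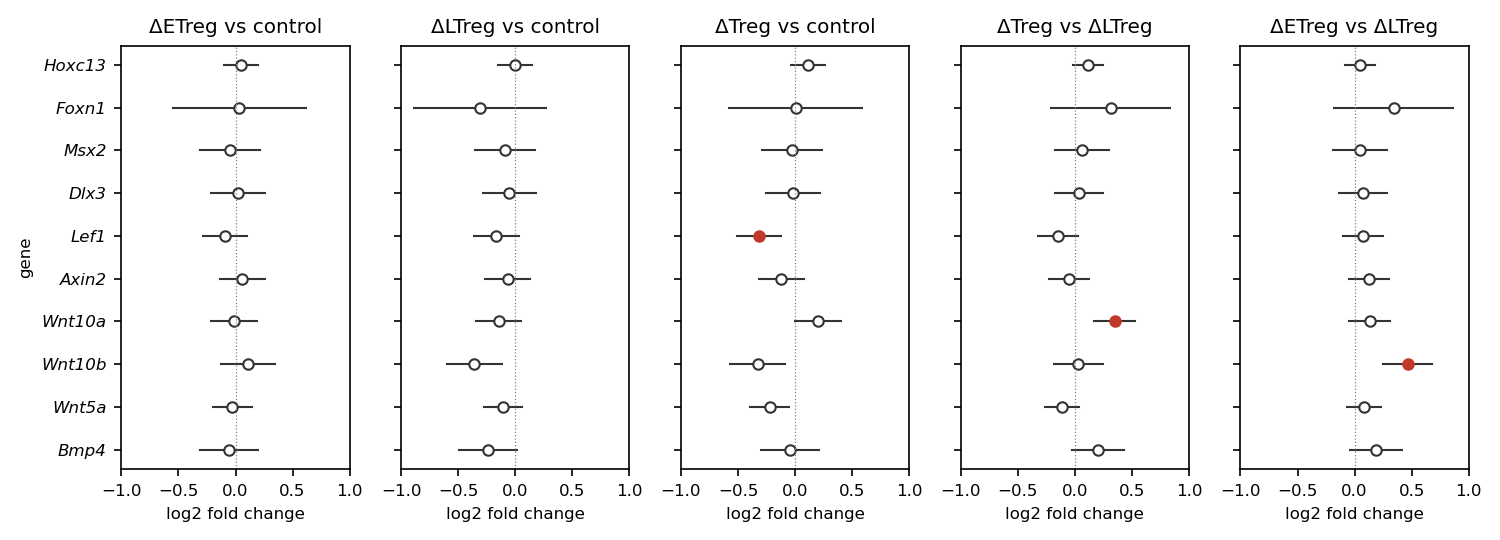
Log2 fold change of each member in 5 comparisons with its 95% confidence interval. Filled points passed the adjusted threshold in edgeR.

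Hoxc13 (ENSMUSG00000001655, GRCm38 chromosome 15, 102921103 to 102928814, plus strand) encodes a homeodomain factor that binds hair keratin genes. Its level was 225.2 ± 10.02 CPM in control (± SD, n = 2), 232.4 ± 4.75 in ΔETreg, 224.9 ± 17.5 in ΔLTreg and 243.4 ± 5.63 in ΔTreg (n = 3 each). All 3 ΔTreg libraries, at 243.0, 249.3 and 238.1 CPM, lay above every other library, the next being ΔLTreg replicate 3 at 236.5 CPM. The difference from control was small and not called, at a log2 fold change of 0.11 (SE 0.0674, 95% interval -0.04 to 0.26; edgeR Benjamini-Hochberg adjusted p 0.271). Against ΔLTreg it was 0.11 (SE 0.0601; edgeR Benjamini-Hochberg adjusted p 0.229), and 0.05 without ΔLTreg replicate 1. The difference from control was 0.07 without control replicate 1. Hoxc12, a list gene that lies 7942 bases from Hoxc13 and was named after its values were seen, was nearly silent in every library (0.159 to 0.643 CPM), so that the level of Hoxc13 was not shared by this neighbour.

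Foxn1 (ENSMUSG00000002057, chromosome 11, 78357577 to 78386558, minus strand) encodes the forkhead factor missing in nude mice. It measured 153.9 and 137.2 CPM (control), 140.7, 148.0 and 158.5 (ΔETreg), 64.3, 128.8 and 159.5 (ΔLTreg), and 138.7, 145.3 and 153.8 (ΔTreg). All libraries but ΔLTreg replicate 1 fell in a band from 128.8 to 159.5 CPM, and ΔLTreg held both the lowest and the highest value. Its log2 fold change in ΔLTreg against control was -0.31 (SE 0.262; edgeR Benjamini-Hochberg adjusted p 0.569) and, without ΔLTreg replicate 1, -0.01 (SE 0.101), or -0.60 without ΔLTreg replicate 3. Against ΔLTreg, ΔTreg stood at 0.31 with that library and 0.01 without it, and ΔETreg at 0.34 with it and 0.05 without it. Without ΔLTreg replicate 3, which leaves IC90-F as 1 of 2 ΔLTreg libraries, they stood at 0.60 and 0.64. Without the filter on low counts edgeR called Foxn1 in both of these comparisons (Benjamini-Hochberg adjusted p 0.0387 and 0.0275) and in the 4-group test (0.0377), and under no other alternative. Foxn1 thus differed between libraries of ΔLTreg more than between groups.

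Msx2 (ENSMUSG00000021469, chromosome 13, 53466884 to 53473074, minus strand) encodes a homeodomain factor that acts with FOXN1 in the matrix. It ranged from 182.1 to 216.2 CPM in 10 libraries and measured 150.2 CPM in ΔLTreg replicate 1. Dlx3 (ENSMUSG00000001510, chromosome 11, 95120119 to 95125296, plus strand) encodes a homeodomain factor of matrix and shaft. It ranged from 506.2 to 579.6 CPM in those 10 libraries and measured 429.4 CPM in ΔLTreg replicate 1. In ΔLTreg against control the log2 fold change of Msx2 was -0.09 with that library and 0.04 without it, and that of Dlx3 was -0.05 and 0.06, so both signs turned on 1 library. They were -0.22 and -0.15 without ΔLTreg replicate 3, and -0.05 and -0.03 without control replicate 1. The groups overlapped for both genes, and in no comparison did either reach a Benjamini-Hochberg adjusted p (edgeR quasi-likelihood) below 0.701.

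Across the libraries Msx2 and Dlx3 moved together, with a Pearson r of log2 CPM of 0.961 over 11 libraries and 0.874 over the 10 without ΔLTreg replicate 1. Foxn1 and Bmp4 stood at 0.951 (n = 11) and 0.780 (n = 10). Hoxc13 and Foxn1 stood at 0.715 (n = 11), which became -0.15 without that library (n = 10), so their likeness came from 1 library. Lef1 and Wnt5a (0.872 and 0.854) and Axin2 and Wnt5a (0.870 and 0.849) kept theirs. Wnt10a and Wnt10b did not follow each other, at -0.01 over 11 libraries and -0.36 over 10.

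Lef1 (ENSMUSG00000027985, chromosome 3, 131110471 to 131224356, plus strand) encodes the factor through which beta-catenin acts on DNA in the matrix. It measured 65.5 and 71.1 CPM (control), 68.4, 57.9 and 65.9 (ΔETreg), 54.9, 62.4 and 65.3 (ΔLTreg), and 51.7, 55.6 and 57.4 (ΔTreg). All 3 ΔTreg libraries lay below both controls and below all 3 ΔETreg libraries, and they overlapped ΔLTreg. Lef1 fell in ΔTreg against control, with a log2 fold change of -0.31 (SE 0.0882, 95% interval -0.51 to -0.12; edgeR Benjamini-Hochberg adjusted p 0.0275). The estimate stayed between -0.37 and -0.26 under 17 alternatives, whose adjusted p ran from 0.00427 to 0.190 (edgeR or DESeq2, Benjamini-Hochberg). The call was lost without control replicate 2 (adjusted p 0.190), ΔTreg replicate 1 (0.0874) or ΔTreg replicate 2 (0.0624), each from edgeR with the Benjamini-Hochberg step. Against control, ΔLTreg stood at -0.17, and at -0.09 without ΔLTreg replicate 1, and ΔETreg stood at -0.09, none of them called. Without control replicate 2 these were -0.11 and -0.03, and ΔETreg stood at -0.15 without control replicate 1 and -0.02 without ΔETreg replicate 2. The direct comparison of ΔTreg with ΔLTreg gave -0.15 (SE 0.0794; edgeR Benjamini-Hochberg adjusted p 0.238), and -0.22 without ΔLTreg replicate 1 or -0.09 without replicate 3, so a difference between these groups was not established. The 4-group edgeR test of Lef1 gave a Benjamini-Hochberg adjusted p of 0.0775. It passed in edgeR (Benjamini-Hochberg) without ΔETreg replicate 2 (0.0437), ΔLTreg replicate 1 (0.0340) or the filter on low counts (0.0146), and the 16 alternatives ran from 0.0146 to 0.218.

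Axin2 (ENSMUSG00000000142, chromosome 11, 108920349 to 108950783, plus strand) encodes an inhibitor of beta-catenin that WNT signalling itself induces, and its RNA is often read as a gauge of that signal. It measured 79.8 and 68.6 CPM (control), 74.6, 73.5 and 84.2 (ΔETreg), 66.1, 69.4 and 76.9 (ΔLTreg), and 65.3, 66.6 and 73.1 (ΔTreg). The 4 groups overlapped, and the lowest and highest libraries were ΔTreg replicate 1 and ΔETreg replicate 3. In ΔTreg against control the log2 fold change was -0.12 (SE 0.0899, 95% interval -0.32 to 0.08; edgeR Benjamini-Hochberg adjusted p 0.386). It was -0.01 without control replicate 1 and -0.23 without control replicate 2, so its size turned on the control kept. In ΔETreg against ΔLTreg it was 0.13, and 0.08 without ΔLTreg replicate 1, 0.20 without ΔLTreg replicate 3 and 0.06 without ΔETreg replicate 3. Axin2 was thus not called in any comparison, and its interval leaves room for a decrease in ΔTreg of up to 0.32 on the log2 scale.

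Other WNT inhibitors and feedback genes gave a different count. Beside Axin2, 9 of 19 tested genes of this list (20 listed) were lower in ΔTreg than in control and 0 were higher, beside 21.5% of all genes called, with a median log2 fold change of -0.43 against -0.01 for all genes tested. Without control replicate 2 the count was 3. The list summed to 1124 and 1145 CPM (control), 1084, 1088 and 1093 (ΔETreg), 951.4, 980.8 and 935.3 (ΔLTreg), and 894.5, 901.8 and 917.0 (ΔTreg), its most abundant gene being Apcdd1. This sum was lowest in the ΔTreg libraries and next lowest in those of ΔLTreg. A sum over a list and the level of 1 gene are unlike measures, so its spread is not compared with that of Axin2. Sostdc1, which encodes an antagonist of WNT and BMP, measured 70.8 and 76.3 CPM in control and 37.6, 40.4 and 43.3 in ΔTreg. It fell by 0.86 on the log2 scale (SE 0.0832; edgeR Benjamini-Hochberg adjusted p 4.68e-05). Apcdd1 (-0.51) and Sp5 (-1.06), a WNT inhibitor and a target gene, also fell in ΔTreg, Sp5 short of the threshold without control replicate 2 (edgeR Benjamini-Hochberg adjusted p 0.0549). Whether Axin2 differed from these genes was not tested. In ΔLTreg against control 1 of the 19 was lower (Apcdd1) and 0 were higher, beside 4.55% of all genes called. Apcdd1 was not called without control replicate 1 (edgeR Benjamini-Hochberg adjusted p 0.0714) or 2 (0.0634) or with only the 2 groups fitted (0.134). In that comparison 4 were called without ΔLTreg replicate 1, 3 without ΔLTreg replicate 3 and 2 without ΔETreg replicate 1.

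**Figure D3:**
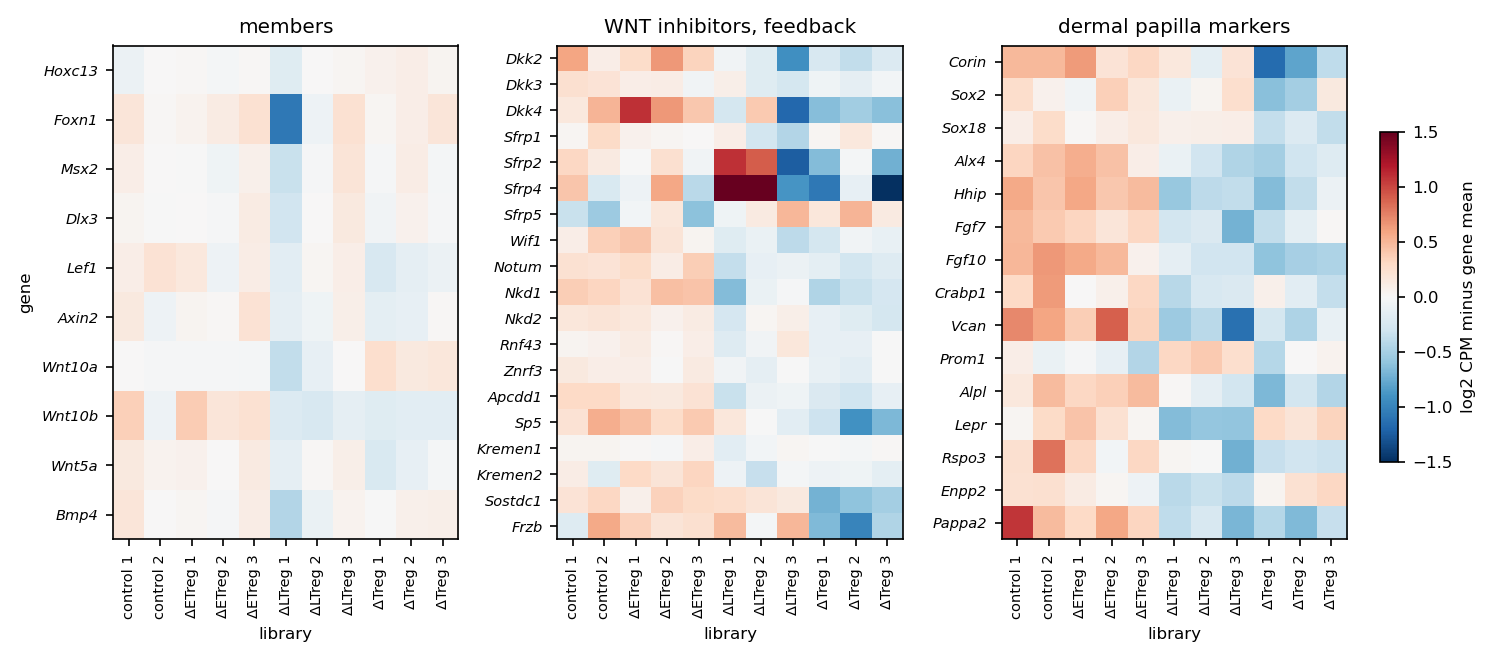
Level of each member, of the other WNT inhibitors and feedback genes and of the dermal papilla markers in each library, as log2 CPM minus the gene's mean over the 11 libraries. Values beyond the ends of the colour scale take its end colours.

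Wnt10a (ENSMUSG00000026167, chromosome 1, 74791516 to 74804179, plus strand) encodes a WNT ligand of follicle epithelium that acts through beta-catenin. It measured 32.7 and 32.2 CPM (control), 32.4, 32.2 and 32.05 (ΔETreg), 25.3, 29.96 and 32.9 (ΔLTreg), and 39.0, 36.3 and 36.9 (ΔTreg). All 3 ΔTreg libraries lay above the other 8, which apart from ΔLTreg replicates 1 and 2 sat within 1 CPM of each other. Wnt10a was higher in ΔTreg than in ΔLTreg, both taken on day 13, with a log2 fold change of 0.35 (SE 0.0806; edgeR Benjamini-Hochberg adjusted p 0.0127). Without ΔLTreg replicate 1 it was 0.25 (SE 0.0576; edgeR Benjamini-Hochberg adjusted p 0.0168), so the call was kept at a smaller size. The call was lost without ΔTreg replicate 1 (adjusted p 0.0588) and in a fit of the 2 groups alone (0.0511), and the 17 alternatives ran from 0.00111 to 0.0588 (edgeR or DESeq2, Benjamini-Hochberg). Against control, ΔTreg stood at 0.20 (SE 0.0906; edgeR Benjamini-Hochberg adjusted p 0.140), which passed only without ΔLTreg replicate 1 (0.0308; 17 alternatives from 0.0308 to 0.398). ΔLTreg stood at -0.15 against control, at -0.05 without replicate 1 and at -0.23 without replicate 3. The 4-group test called Wnt10a at a Benjamini-Hochberg adjusted p of 0.0401 in edgeR, but of the 11 fits that left out 1 library only those without ΔLTreg replicate 1 or 3 called it. The other 9, without either control, any ΔETreg, any ΔTreg or ΔLTreg replicate 2, gave 0.0551 to 0.152.

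Wnt6, the ligand gene beside Wnt10a, lies 6193 bases before it on the same strand, with the start of no other protein-coding gene between them. It measured 18.32 and 18.05 CPM (control), 21.28, 18.9 and 20.99 (ΔETreg), 15.97, 15.45 and 16.94 (ΔLTreg), and 15.01, 13.63 and 15.58 (ΔTreg). All ΔETreg libraries lay above the others and all ΔTreg libraries below both controls. The direction was opposite to that of Wnt10a, since Wnt6 fell in ΔTreg against control, with a log2 fold change of -0.30 (SE 0.0830; edgeR Benjamini-Hochberg adjusted p 0.0242). Its call was lost without control replicate 1 (edgeR Benjamini-Hochberg adjusted p 0.0842), control replicate 2 (0.0941) or ΔTreg replicate 2 (0.0818), and in DESeq2 (0.0513) or without the filter (0.0637). Wnt6 was also higher in ΔETreg than in ΔLTreg, at 0.34 (SE 0.0740; edgeR Benjamini-Hochberg adjusted p 0.0241). That call was lost without ΔETreg replicate 1 (edgeR Benjamini-Hochberg adjusted p 0.0844) or 3 (0.0802) or ΔLTreg replicate 1 (0.0526) or 2 (0.0729), and in a fit of the 2 groups alone (0.0583). The genes whose log2 CPM followed Wnt10a most closely over the 11 libraries were Gpr176 (r = 0.967), Rab14 (0.963) and Tle4 (0.963), which encodes a corepressor that binds LEF1. Without ΔLTreg replicate 1 (n = 10) these were 0.925, 0.917 and 0.927. Tle4 measured 42.9 and 41.7 CPM (control), 39.8, 37.6 and 39.3 (ΔETreg), 30.9, 35.6 and 39.3 (ΔLTreg), and 49.0, 44.9 and 44.6 (ΔTreg). It was named for its likeness to Wnt10a, so sharing the group order of Wnt10a is no separate finding.

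Wnt10b (ENSMUSG00000022996, chromosome 15, 98770712 to 98778150, minus strand) encodes a WNT ligand of the matrix that favours follicle growth. It measured 33.1 and 24.6 CPM (control), 33.7, 29.3 and 30.4 (ΔETreg), 22.3, 21.8 and 23.5 (ΔLTreg), and 22.7, 23.1 and 23.2 (ΔTreg). All 6 libraries of day 13 lay below all 3 of day 9. Control replicate 1 lay within the ΔETreg range, and control replicate 2 lay between ΔETreg and the day 13 libraries. Wnt10b was higher in ΔETreg than in ΔLTreg, with a log2 fold change of 0.47 (SE 0.0974; edgeR Benjamini-Hochberg adjusted p 0.0198). Without ΔLTreg replicate 1 it was 0.46 (SE 0.114; edgeR Benjamini-Hochberg adjusted p 0.0456), so this result did not rest on the library titled IC90-F. The call was lost by a small margin without ΔETreg replicate 2 (adjusted p 0.0505), ΔETreg replicate 3 (0.0501) or ΔLTreg replicate 2 (0.0508), and without ΔETreg replicate 1 (0.0707). Over 17 alternatives the adjusted p ran from 6.06e-05 to 0.0707 (edgeR or DESeq2, Benjamini-Hochberg), and the estimate from 0.41 to 0.51.

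The 4-group test called Wnt10b at a Benjamini-Hochberg adjusted p of 0.00913 in edgeR and did so under all 16 alternatives, from 5.95e-06 to 0.0299. Against control, the call of Wnt10b depended on which control was kept and on the filter on low counts. Without that filter edgeR called Wnt10b lower in ΔLTreg and in ΔTreg (Benjamini-Hochberg adjusted p 0.0172 and 0.0186). In ΔLTreg its log2 fold change was -0.36 (SE 0.108; edgeR Benjamini-Hochberg adjusted p 0.0918), -0.56 without control replicate 2 (adjusted p 0.0153) and -0.13 without control replicate 1 (0.525). Without ΔLTreg replicate 1 it was -0.35 (edgeR Benjamini-Hochberg adjusted p 0.143). The fits without a control gave the lowest and highest adjusted p of its 17 alternatives. In ΔTreg it was -0.33 (SE 0.108; edgeR Benjamini-Hochberg adjusted p 0.0520), -0.53 without control replicate 2 (0.00451) and -0.10 without control replicate 1 (0.493), again the extremes of 17 alternatives. In ΔETreg it was 0.11, the highest of any member, -0.09 without control replicate 2, 0.34 without control replicate 1 and 0.05 without ΔETreg replicate 1. ΔTreg and ΔLTreg were level with each other, at 22.99 ± 0.270 and 22.53 ± 0.895 CPM (± SD, n = 3 each).

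Over the 11 libraries Wnt10b was followed most closely by Bach2 (r = 0.956) and Jag1 (0.952), a Notch ligand gene. Without ΔLTreg replicate 1 (n = 10) these stood at 0.953 and 0.947. Wnt1, which neighbours Wnt10b and was named after its values were seen, reached at most 0.257 CPM and did not pass the filter.

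Wnt5a (ENSMUSG00000021994, chromosome 14, 28504750 to 28527448, plus strand) encodes a WNT ligand that mostly signals without beta-catenin. It measured 136.8 and 127.7 CPM (control), 129.1, 124.3 and 135.6 (ΔETreg), 112.3, 124.7 and 130.8 (ΔLTreg), and 105.4, 113.1 and 121.2 (ΔTreg). All 3 ΔTreg libraries lay below every control and ΔETreg library, as they did for Lef1, and overlapped ΔLTreg. The log2 fold change in ΔTreg against control was -0.22 (SE 0.0764; edgeR Benjamini-Hochberg adjusted p 0.0601), just outside the threshold. It passed in edgeR without ΔLTreg replicate 1 (Benjamini-Hochberg adjusted p 0.0275), ΔLTreg replicate 3 (0.0469), ΔTreg replicate 3 (0.0425), TMM (0.0441) or the filter (0.0493). The 17 alternatives ran from 0.0275 to 0.244 (edgeR or DESeq2, Benjamini-Hochberg). ΔLTreg stood at -0.11 against control, at -0.05 without replicate 1 and at -0.06 without control replicate 1. Against ΔLTreg, ΔTreg stood at -0.11, at -0.18 without ΔLTreg replicate 1, -0.06 without ΔLTreg replicate 3 and -0.07 without ΔTreg replicate 1.

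Other ligand genes behaved unevenly. Of 13 tested ligands other than the members (16 listed, Wnt4 the most abundant), 4 were lower and 0 higher in ΔTreg than in control, beside 21.5% of all genes, with a median log2 fold change of -0.09. The count was 2 without control replicate 1 or ΔTreg replicate 2, and 1 without control replicate 2. Wnt16 (-1.03), Wnt5b (-0.84, the nearest relative of Wnt5a) and Wnt6 were those with the smallest p, and Wnt5b was not called without control replicate 2 (edgeR Benjamini-Hochberg adjusted p 0.0619). The call of Wnt6 was lost without either control replicate or ΔTreg replicate 2, as given above. Wnt5b was also lower in ΔLTreg than in control (-0.78), where 1 of the 13 was called beside 4.55% of all genes. There it was not called without control replicate 1 or 2, ΔETreg replicate 3 or ΔLTreg replicate 2 or 3. It was not called in ΔTreg against ΔLTreg. The 3 member ligands thus had no common direction in ΔTreg, Wnt10a being above control and Wnt10b and Wnt5a below it, and none of them was called against control.

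Receptors and the secretion machinery for these ligands were counted in the same way. Of 18 receptors and co-receptors (most abundant Fzd1), 6 were lower and 0 higher in ΔTreg than in control, beside 21.5% of all genes called, and 2 were called without control replicate 2, ΔTreg replicate 1 or ΔTreg replicate 2. Lgr6 (-0.47), Ror2 (-0.45), which encodes a WNT5A receptor, and Fzd10 (-0.24) had the smallest p. Fzd10 was not called without control replicate 1 (edgeR Benjamini-Hochberg adjusted p 0.0706) or 2 (0.0618) or ΔTreg replicate 1 (0.0507) or 2 (0.0535). Lower receptors were not particular to ΔTreg. In ΔLTreg against control 3 of 18 were lower and 0 higher beside 4.55% of all genes: Lgr6 (-0.47), Lgr5 (-0.44) and Fzd10 (-0.24). That count ran from 0 to 4 with a library left out. ΔTreg against ΔLTreg gave 1 higher and 1 lower beside 16.8% of all genes. Of 20 genes for secretion, R-spondins and intracellular steps (most abundant Ctnnb1), 4 were lower and 1 higher in ΔTreg than in control, beside 21.5% of all genes called. That count of 5 was 2 without control replicate 2 or ΔTreg replicate 1 and 3 without ΔTreg replicate 2. Porcn, which encodes the enzyme that acylates WNT ligands, rose by 0.71 on the log2 scale, while Rspo1 (-1.01) and Rspo2 (-0.91) fell. Rspo2 was not called without control replicate 2 (edgeR Benjamini-Hochberg adjusted p 0.215) or ΔTreg replicate 1 (0.0622) or 2 (0.0649). In ΔLTreg against control 2 of these 20 were lower and 0 higher, Rspo1 (-0.67) and Wls (-0.27), beside 4.55% of all genes. That count was 0 without either control replicate. In ΔTreg against ΔLTreg, Porcn was higher (0.49) and Rspo2 lower (-0.76) beside 16.8% of all genes, and Rspo1 was not called.

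Bmp4 (ENSMUSG00000021835, chromosome 14, 46383520 to 46390669, minus strand) encodes a BMP ligand of dermal papilla and matrix. It measured 60.3 and 53.4 CPM (control), 54.4, 52.4 and 57.6 (ΔETreg), 39.3, 49.7 and 55.3 (ΔLTreg), and 53.0, 56.2 and 56.6 (ΔTreg). The groups overlapped, and ΔLTreg replicate 1 was the lowest library by a wide margin. In ΔLTreg against control the log2 fold change was -0.24 (SE 0.115; edgeR Benjamini-Hochberg adjusted p 0.269), -0.11 without ΔLTreg replicate 1 and -0.15 without control replicate 1. In ΔTreg against ΔLTreg it was 0.20 (SE 0.103; edgeR Benjamini-Hochberg adjusted p 0.216), and 0.07 without that library. The latter passed only without ΔLTreg replicate 3 (0.32; adjusted p 0.0403), which left IC90-F as 1 of the 2 remaining ΔLTreg libraries, and its 17 alternatives ran from 0.0403 to 0.554 (edgeR or DESeq2, Benjamini-Hochberg). In ΔETreg against ΔLTreg, Bmp4 stood at 0.19, at 0.06 without ΔLTreg replicate 1 and at 0.31 without ΔLTreg replicate 3.

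Of 27 tested genes of the BMP pathway other than Bmp4 (28 listed, Bmpr2 the most abundant), 3 were lower and 2 higher in ΔTreg than in control, beside 21.5% of all genes called. The count of 5 was 2 without control replicate 2 or ΔTreg replicate 2 and 3 without ΔTreg replicate 3. Fst (-0.73), Id3 (-0.33) and Smad1 (0.19) had the smallest p, and Smad1 was not called without control replicate 2 (edgeR Benjamini-Hochberg adjusted p 0.144) or ΔTreg replicate 2 (0.0569), without TMM (0.0533) or without the filter (0.103). Of 20 other follicle transcription factors (most abundant Grhl1), 3 were lower and 2 higher, beside 21.5% of all genes called, with Runx1 (0.53), Trps1 (-0.50) and Foxe1 (-0.26) those of smallest p. Foxe1 was not called without control replicate 2 (edgeR Benjamini-Hochberg adjusted p 0.112) or ΔTreg replicate 1 (0.0524). That count of 5 was 2 without control replicate 2, 3 without ΔTreg replicate 2 or 3, and 8 without ΔLTreg replicate 1. In ΔLTreg against control 2 of these 20 were lower, Trps1 (-0.67) and Msx1 (-0.42), and 1 higher, Dlx1 (0.53), beside 4.55% of all genes. That count of 3 ran from 1 to 5 with a library left out. Trps1 thus fell in both groups, and it was not called in ΔTreg against ΔLTreg. The 4 member transcription factors were none of them called beside these.

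Markers of cell types that hold or neighbour the members also differed between groups, and fewer cells of a type cannot be told apart from less RNA per cell in bulk tissue. Dermal papilla markers (16 listed, 15 tested, most abundant Vcan, 0 at a count of 0 in every library) summed to 314.5 and 310.0 CPM in control and 288.5, 309.6 and 262.3 in ΔETreg. They summed to 183.0, 186.2 and 164.0 in ΔLTreg and 191.9, 198.4 and 223.1 in ΔTreg, so that day 13 libraries lay below day 9 libraries as they did for Wnt10b. Of the 15, 11 were lower in ΔTreg than in control and 0 higher (6 without control replicate 2), beside 21.5% of all genes called, and 9 were lower in ΔLTreg, beside 4.55% (5 without control replicate 2, 8 without ΔLTreg replicate 1). In ΔETreg against ΔLTreg 9 were higher and 0 lower beside 6.38% of all genes called (5 without ΔETreg replicate 1, 4 without replicate 2, 9 without ΔLTreg replicate 1). The part of the dermal papilla in the Wnt10b, Lef1 and Bmp4 values was not tested. Cell cycle genes (22, most abundant Mki67) summed to 1729 and 1732 CPM (control), 1751, 1768 and 1747 (ΔETreg), 1443, 1581 and 1573 (ΔLTreg), and 1386, 1454 and 1497 (ΔTreg). In ΔTreg against control 15 of the 22 were lower and 0 higher beside 21.5% of all genes called, 7 without control replicate 2 and 8 without ΔTreg replicate 1. The part of dividing matrix cells in the Lef1 value was not tested.

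Immune cell markers (15, most abundant Lyz2) summed to 137.8 and 100.2 CPM (control), 96.4, 104.6 and 72.8 (ΔETreg), 113.3, 158.3 and 84.1 (ΔLTreg), and 336.3, 286.6 and 343.9 (ΔTreg). Of these, 12 were higher in ΔTreg than in control, beside 21.5% of all genes called, and 12 higher than in ΔLTreg, beside 16.8%, the comparison in which Wnt10a was called, and their part in the Wnt10a value was not tested.

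Interferon-stimulated genes (15, most abundant Gbp2) summed to 141.1 and 80.55 CPM (control), 113.2, 107.3 and 139.9 (ΔETreg), 248.7, 339.7 and 167.8 (ΔLTreg), and 1452.5, 1625.0 and 1163.1 (ΔTreg). Of these, 15 were higher in ΔTreg than in control and 14 higher than in ΔLTreg, beside 21.5% and 16.8% of all genes called. Melanocyte markers (10, most abundant Dct) summed to 1338.7 and 1568.5 CPM (control), 1238.7, 924.3 and 1136.2 (ΔETreg), 1387.7, 1196.1 and 1306.1 (ΔLTreg), and 861.6, 839.9 and 819.9 (ΔTreg). Of these, 9 were lower in ΔTreg than in control and 9 lower than in ΔLTreg (8 without ΔLTreg replicate 1), beside the same shares of all genes. Fibroblast markers (10, most abundant Col1a1) summed to 22227.3 and 18706.8 CPM (control), 14235.7, 25100.5 and 19386.6 (ΔETreg), 16813.4, 19020.0 and 8795.1 (ΔLTreg), and 10711.1, 10772.7 and 11987.3 (ΔTreg). In ΔTreg against control 4 of the 10 were lower and 0 higher beside 21.5% of all genes called. That count was 0 without either control replicate or ΔTreg replicate 1 or 2, 1 without ΔTreg replicate 3 and 7 without ΔLTreg replicate 3. The part of these lists in the Lef1, Wnt10a and Wnt5a values was not tested.

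Further lists were called above the share of all genes in these comparisons. Endothelial markers (8, most abundant Pecam1) summed to 276.9 and 284 CPM (control), 269.5, 273 and 284.2 (ΔETreg), 307.3, 309.5 and 310.3 (ΔLTreg), and 305.3, 323.3 and 288.7 (ΔTreg). In ΔTreg against ΔLTreg, where Wnt10a was called, 1 was higher and 4 lower beside 16.8% of all genes, and 3 were called without any 1 ΔLTreg or ΔTreg replicate except ΔLTreg replicate 3, or without ΔETreg replicate 2. There dermal papilla markers gave 2 higher and 2 lower of 15, and skeletal muscle markers 3 lower of 12 (10 without ΔLTreg replicate 2, 1 without ΔTreg replicate 1 or 2). Follicle transcription factors gave 4 higher and 1 lower of 20 there (1 to 5 called with a library left out). WNT inhibitors and feedback genes gave 4 lower of 19 (2 to 5), and BMP pathway genes 3 higher and 3 lower of 27 (4 to 8). Adipocyte markers gave 2 lower of 10 (0 to 4). In ΔTreg against control, where Lef1 was called, endothelial markers gave 2 higher and 2 lower beside 21.5% of all genes (2 called without control replicate 2). Interfollicular epidermis markers (12, most abundant Krt5) ranged from 12031.7 to 17030.9 CPM over the libraries and gave 1 higher and 4 lower there (3 called without control replicate 1 or ΔTreg replicate 1). Erythroid genes (6, most abundant Hbb-bs) summed to 302 and 292 CPM (control) and 214.4, 225.1 and 187.6 (ΔTreg) and gave 1 higher and 3 lower. Their count of 4 was 0 without control replicate 1, 1 without control replicate 2 or ΔTreg replicate 1 or 3, and 2 without ΔETreg replicate 2. The part of these lists in the Lef1 and Wnt10a values was not tested.

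In ΔETreg against ΔLTreg, where Wnt10b was called, other lists also differed beside 6.38% of all genes called. WNT inhibitors and feedback genes gave 6 higher of 19 (1 without any 1 ΔETreg replicate) and cell cycle genes 7 higher of 22 (3, 0 and 1 without ΔETreg replicates 1, 2 and 3). Interferon-stimulated genes gave 7 lower of 15, 0 without ΔETreg replicate 1 or 2, 2 without ΔETreg replicate 3, 3 and 1 without ΔLTreg replicates 1 and 2, 12 without ΔLTreg replicate 3 and 4 without any 1 ΔTreg replicate. Skeletal muscle markers gave 6 lower of 12, 2 without any 1 ΔETreg replicate and 10 without ΔLTreg replicate 2. Interfollicular epidermis markers gave 3 higher of 12 (1 to 4 called with a library left out). Fibroblast markers gave 2 higher of 10 (0 to 2). Follicle transcription factors gave 2 higher and 1 lower of 20 (1 to 3). Hair follicle stem cell and outer root sheath markers gave 1 higher and 1 lower of 10 (0 to 3). Other WNT ligands gave 2 higher of 13 and receptors 2 higher of 18 (each 0 to 2). Immune cell markers gave 2 lower of 15 (1 to 3). The part of all these lists in the Wnt10b value was not tested.

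Hair shaft keratins gave 0 of 15 calls in edgeR in each of the 5 pairwise comparisons, and 1 in ΔTreg against control without ΔLTreg replicate 1 and in ΔTreg against ΔLTreg without ΔLTreg replicate 1 or 3. Inner root sheath genes gave 3 higher and 0 lower of 11 in ΔTreg against control (Krt74, Krt72 and Krt28) beside 21.5% of all genes called, 1 without control replicate 1 or ΔTreg replicate 2 or 3, and 0 without control replicate 2 or ΔTreg replicate 1. In ΔLTreg against control 3 inner root sheath genes were higher without ΔLTreg replicate 1, as 3 were lower in ΔETreg than in ΔLTreg, while none was called in either comparison with that library. Beside 4.55% of all genes called in ΔLTreg against control, interferon-stimulated genes gave 6 higher of 15 (3 without ΔLTreg replicate 1 or 2). Interfollicular epidermis markers gave 3 lower of 12 there (5 without ΔETreg replicate 1). Both counts were lower without either control replicate. In ΔLTreg against control, skeletal muscle markers gave 3 higher of 12, 10 without ΔLTreg replicate 2, 2 without ΔLTreg replicate 1 and 1 without control replicate 1.

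The promoter windows of Lef1 and Wnt10b are shown because these called members are a transducer and a ligand of the same pathway. RefSeq windows of 300 bases on GRCm38.p6 matched 6 of the 10 members: Foxn1, Msx2, Lef1, Axin2, Wnt10b and Bmp4. Capitals mark the core CTTTG that TCF and LEF factors bind, on either strand (CAAAG on the printed strand), which 53.9% of all 32851 promoter windows hold. The first Lef1 window (chr3:131110047-131110346, plus strand) held 2 matches:
Lef1: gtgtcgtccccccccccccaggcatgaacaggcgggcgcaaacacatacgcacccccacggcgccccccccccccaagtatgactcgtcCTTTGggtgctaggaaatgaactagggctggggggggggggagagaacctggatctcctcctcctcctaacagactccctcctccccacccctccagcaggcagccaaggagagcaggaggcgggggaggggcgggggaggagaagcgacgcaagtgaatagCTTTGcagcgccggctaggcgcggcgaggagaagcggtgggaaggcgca
The Wnt10b window (chr15:98778101-98778400, minus strand) held 1 match:
Wnt10b: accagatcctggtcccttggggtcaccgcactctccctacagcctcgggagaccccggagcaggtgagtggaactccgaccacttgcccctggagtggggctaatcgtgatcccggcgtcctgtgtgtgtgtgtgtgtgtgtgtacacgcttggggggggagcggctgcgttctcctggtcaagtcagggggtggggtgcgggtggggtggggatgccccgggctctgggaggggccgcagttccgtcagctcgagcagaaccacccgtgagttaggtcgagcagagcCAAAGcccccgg
The core followed by 2 bases that are each A or T, a longer form, was in neither of these and in 16.9% of all windows on either strand. Of the 3 Lef1 windows not printed, that at chr3:131110073-131110372 overlaps the printed one and holds the same 2 matches. Those at chr3:131112541-131112840 and chr3:131156044-131156343 held 1 and 3 matches to the core, 1 of the latter in the longer form. The windows of Foxn1, Msx2, Axin2 and Bmp4 held 0 matches to the core. A match is a run of letters and not a measured site.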

How the data were processed

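RNA-seq counts per gene were measured in 11 whole-skin libraries, all with batch label 1, and the deposited table holds raw read counts, made by the authors. The submitters' processing notes name Trimmomatic 0.36, STAR 2.5.2b, featureCounts of Subread 1.5.2 and GRCm38. The strand setting and annotation release were not used here. Library totals ran from 23377571 to 34159435 counts. edgeR 4.0.16 in R 4.3.3 (filterByExpr with a minimum count of 10, TMM, 1 mean per group, quasi-likelihood F test) fitted all 11 libraries together, with Benjamini-Hochberg adjustment over 18375 genes and a threshold of 0.05. SE was derived from each fold change and its F statistic. The biological coefficient of variation was 11.0%. Replicates differed beyond counting error: the median chi-square per gene between replicates was 1.02 to 3.52, against 0.455 from counting alone. Coordinates and exon lengths came from GENCODE.

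The members and lists were chosen with earlier results of these data known. Named besides the 10 members were, per list and comparison, up to 3 genes of smallest p among those called, the most abundant gene, and the 3 genes most correlated with each member called in the 4-group test. Alternatives were DESeq2 1.42.0 size factors, no TMM, no filter, at least 10 counts in every library, only the 2 groups compared, DESeq2's own test, and leaving out each library. No paired analysis was possible because the labels give no litter or pairing. The replicate numbers used here only follow the order of the libraries within a group. The study's reporting summary mentions littermate-controlled animal studies, but the litter of each library is not given in the labels. Krt85 was not analysed here. Of the correlated genes, 1 is not reported here.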

Additional observations from a re-analysis of the deposited data

How the results depend on the processing

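Each count and each fold change the report prints was repeated under 6 other settings (5 for the 4-group test) and with each of the 11 libraries left out. Of the 26 member fold changes printed, 149 of 156 values under other settings kept direction and call, 6 entered the called set and 1 left it. With a library left out, 268 of 286 did, 7 entered, 8 left and 3 changed sign. Those were Wnt10b in ΔETreg against control (-0.0906 to 0.340), and Msx2 (-0.222 to 0.0366) and Dlx3 (-0.151 to 0.0599) in ΔLTreg against control. Over all 50 member fold changes, printed or not, 21 changed sign without some library.

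Without the filter on low counts edgeR called 1 member in ΔLTreg and 3 in ΔTreg against control, 2 in ΔTreg and 2 in ΔETreg against ΔLTreg, and 4 in the 4-group test, beside 1790 genes in ΔLTreg and 54 in ΔETreg against control and 2173 in ΔETreg against ΔLTreg. Without TMM, 2 members were called in ΔTreg against control. With only the 2 groups compared, 0 members were called in ΔTreg against ΔLTreg, and all genes gave 0 calls in ΔETreg and 154 in ΔLTreg against control and 540 in ΔETreg against ΔLTreg. ΔETreg against control gave 0 genes with at least 10 counts in every library and 10 genes in DESeq2.

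With a library left out, members called ran from 0 to 1 in ΔLTreg and 0 to 3 in ΔTreg against control, 0 to 2 in ΔTreg and 0 to 1 in ΔETreg against ΔLTreg, and 1 to 3 in the 4-group test. All genes called ran from 0 to 7 in ΔETreg, 292 to 903 in ΔLTreg and 2026 to 4520 in ΔTreg against control. They ran from 1987 to 3385 in ΔTreg and 353 to 1248 in ΔETreg against ΔLTreg, and from 3068 to 4930 in the 4-group test. The cause of these shifts was not tested.

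The alternatives for lists and other named genes were chosen after seeing the data. Of the list counts printed, 37 were tallied, and the shares given here do not describe the rest. The tallied counts stayed within a factor of 1.5 in 189 of 222 values under other settings and 325 of 407 with a library left out. Calls of other named genes, as far as tallied, were kept in 114 of 120 and 198 of 220.

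Control had 2 libraries, whose day the labels do not give although the study describes age-matched controls, so treatment and age were not separated against it. Each library was bulk RNA of whole skin, so cell number and RNA per cell were not separated. Lef1, Axin2, Wnt5a and Bmp4 overlap annotated genes on the opposite strand, and the strand setting was not used here. The largest share was for Gm43352, at 114 to 162 counts against 1206 to 2087 for Lef1. Small changes, such as that of Axin2, were within the width of the intervals.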
